A study of Mus musculus with 35 samples.

Results

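Antigen presentation by MHC class I was followed through 8 genes, B2m, H2-K1, H2-D1, Tapbp, Tap1, Tap2, Psmb8 and Psmb9, which were taken by symbol for their place in the pathway. All 8 were listed among the 23538 genes of the count tables. RNA of single small-intestinal epithelial cells was counted by CEL-seq, a plate method in which each transcript receives a well barcode and a short random barcode, and distinct random barcodes are counted per gene and well. All mice were C57BL/6 and no age is given in the sources used here. Whole organoid cells came from a wild-type mouse without a reporter sort (2 passages of 1 culture). Reg4+ organoid cells came from a Reg4-dsRed-knock-in mouse (2 passages of 1 culture), in which the dsRed reporter marks Reg4-expressing cells. Lgr5+ organoid cells came from an Lgr5-GFP-DTR mouse (1 library, matched to its table by the table's name), which carries a GFP and diphtheria toxin receptor cassette. Organoids, epithelial structures grown from crypts in Matrigel, received EGF, RspoI and Noggin and were split weekly. Intestinal cells were sorted directly from tissue, either as Lgr5-EGFP+ crypt cells (2 plates) or as YFP+ cells 5 days after Lgr5-Cre had switched on YFP from Rosa26 (genotype Lgr5-YFP, 5 plates). Organoids were dissociated with TrypLE and tissue with EDTA and trypsin, and each group had its own genotype. Culture, mouse, reporter and dissociation therefore cannot be told apart in a comparison of organoid with intestine. The labels do not say whether ex vivo plates came from different animals, so p-values measure the spread between plates or passages only.

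MHC class I molecules show peptides from inside the cell to CD8+ T cells. H2-K1 and H2-D1 encode classical heavy chains, and B2m encodes beta-2 microglobulin, the light chain that the heavy chains need to reach the surface efficiently. The peptides are cut by the proteasome, carried into the endoplasmic reticulum by the TAP transporter, a dimer of Tap1 and Tap2, and loaded with the help of tapasin (Tapbp). Psmb8 and Psmb9 encode catalytic subunits of the immunoproteasome that take the places of the constitutive subunits Psmb5 and Psmb6. Interferon gamma is a known inducer of these genes, and the gut epithelium lies beside intraepithelial lymphocytes, which can release it.

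Of these genes 7 lie on chromosome 17 in the mouse MHC and B2m lies on chromosome 2 (GRCm38, GENCODE M21). Psmb9 (chr17:34181987-34187764, minus strand), Tap1 (chr17:34187553-34197225, plus strand), Psmb8 (chr17:34197721-34201454, plus strand) and Tap2 (chr17:34203527-34216321, plus strand) stand side by side within 34335 bp. The 5′ ends of Psmb9 and Tap1 overlap by 212 bp on opposite strands. Tapbp (chr17:33915899-33929292, plus strand), H2-K1 (chr17:33996017-34000347, minus strand) and H2-D1 (chr17:35262730-35267499, plus strand) lie in the same region, and B2m lies at chr2:122147686-122153083 on the plus strand. B2m, Tap1, Tap2, Tapbp, Psmb8 and Psmb9 overlap another annotated gene, and no source used here says whether the authors' counting used strand. H2-K1 and H2-D1 are close copies of each other and of other class I genes. In these tables H2-Q6, H2-Q7 and H2-T9 had no counts, so the way reads were split between class I copies is uncertain.

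The upstream sequences of H2-K1, H2-D1 and B2m are shown because these genes, which form the surface molecule, differed from the Psmb8 and Psmb9 group in the comparisons that follow. Sequences are from RefSeq on GRCm38.p6, written 5′ to 3′ on the gene's own strand. Capitals mark matches to 3 motifs searched on both strands, the kappa B-like GGGATTCCC, the CRE-like TGACG and GAAANNGAA, a core of the interferon-stimulated response element. The H2-K1 stretch is chr17:34000348-34000527 (minus strand) and ends at the base before the RefSeq start. The B2m stretch is chr2:122147507-122147685 (plus strand).
H2-K1 upstream: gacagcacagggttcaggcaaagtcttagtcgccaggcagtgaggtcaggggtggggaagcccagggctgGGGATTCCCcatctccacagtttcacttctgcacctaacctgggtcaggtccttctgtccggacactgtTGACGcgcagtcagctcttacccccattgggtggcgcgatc
B2m upstream: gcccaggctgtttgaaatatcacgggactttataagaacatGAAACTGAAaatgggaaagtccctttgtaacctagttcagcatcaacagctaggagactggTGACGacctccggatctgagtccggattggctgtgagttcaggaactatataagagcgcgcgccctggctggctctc
For H2-D1, an alternative transcript of GENCODE starts further upstream, so only 30-base sites are shown, at chr17:35262914-35262943 and chr17:35262981-35263010 (plus strand), with the H2-K1 sites of the same kind at chr17:34000438-34000467 and chr17:34000371-34000400 (minus strand).
H2-K1 kappa B-like site: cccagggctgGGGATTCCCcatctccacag
H2-D1 kappa B-like site: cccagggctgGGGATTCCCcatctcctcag
H2-K1 CRE-like site: tccggacactgtTGACGcgcagtcagctct
H2-D1 CRE-like site: ccgggacactgaTGACGcgctggcaggtct
In RefSeq the starts of Psmb9 and Tap1 lie apart, and the stretch between them (chr17:34187331-34187555) held 1 CRE-like match. The 30-base site around it is chr17:34187458-34187487 (plus strand), which lies within Psmb9 as GENCODE gives it.
Psmb9 and Tap1 CRE-like site: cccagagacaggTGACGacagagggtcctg

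The kappa B-like motif started 69 bases before the CRE-like motif in both H2-K1 and H2-D1, and from it 97 of 110 aligned bases were identical (88.2%). The kappa B-like letters occurred in the 250 bases upstream of 99 of 32851 RefSeq starts (0.301%), the CRE-like letters in 17.8% and the response element core in 7.13%. A further motif, the interferon gamma activated site core TTCNNNGAA, occurred in 7.02% and among the members only upstream of Psmb8. RefSeq promoters were matched for 7 of the 8 members, all but Tap2. These matches describe exact letters, so variants of a motif are left unmarked, and they say nothing about binding.

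Of 1680 wells, the 1209 that reached 1500 gene counts were used and summed per passage or plate. The replicate totals ran from 287001 to 2860636 counts over 35 to 276 wells, with a median of 4608 to 13131.5 counts per well. Levels are given as CPM, a gene's counts relative to the library total, scaled with TMM, a method that sets the bulk of genes equal between libraries, unless they are called unscaled. Ptprc, the pan-leukocyte gene, had 2 counts in all replicates together. The unscaled summed level of 17 lymphoid and myeloid markers, of which 1 was at 0 throughout, was 4.64 to 14.1 CPM in organoid and 9.93 to 83.6 CPM in intestinal replicates, and its part in the differences between them was not tested. The unscaled summed level of 8 stromal and endothelial markers was 4.42 to 332 CPM in organoid and 2.16 to 38.3 CPM in intestinal replicates. The unscaled summed level of 14 stem cell markers was 3465 CPM in Lgr5+ organoid, 3397 and 3041 CPM in Lgr5-EGFP cells, 1707 to 2376 CPM in YFP cells and 787 to 1076 CPM in whole organoid. On the TMM scale it was 3028 CPM in Lgr5+ organoid, 2739 and 2379 CPM in Lgr5-EGFP cells, 1845 to 2476 CPM in YFP cells and 884 to 1104 CPM in whole organoid, so that Lgr5-EGFP and YFP plates overlapped on that scale alone.

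Some plates of whole organoid passage 2 stood apart in B2m. All plate levels are unscaled CPM. The B2m level was 726, 875 and 868 CPM in plates I to III of passage 1. In passage 2 it was 80.7 CPM in plate I (26 wells) and 103 CPM in plate II (63 wells). It was 554 CPM in plate III and 579 CPM in plate IV. Of plate IV, the 8 kept wells numbered 1 to 48 had 63.4 CPM of B2m, from 1 count. The 33 kept wells numbered 49 to 96 had 599 CPM, from 239 counts. The design text of the series calls wells 49 to 96 of a sample unrelated. That was read here as a YFP plate, and whether it means plate IV is not known. Plates I and II together held 32 B2m counts, 98.7 CPM against 562 CPM in plates III and IV, 5.61-fold lower. Among 1835 genes of at least 100 CPM, 197 (10.7%) were lower in plates I and II by more than that. The heavy chains did not share the gap, since H2-K1 was 817 CPM in plates I and II and 629 CPM in plates III and IV, and H2-D1 was 170 and 211 CPM. These wells were also shallower, with medians of 2286 and 3815 counts against 9232 and 11721, and 82 of their 89 wells fell into 2 clusters made up of passage 2 cells alone. The ribosomal transcript Rn45s reached 43407 CPM in plate II, against 1531 to 13492 CPM in the other whole organoid plates. The part of depth and of cell identity in the B2m gap was not tested. Tests of members between groups that use whole organoid passage 2 were repeated without these plates, and their main values are given. List results, subunit shares and correlations are given with these plates only.

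**Figure D1:**
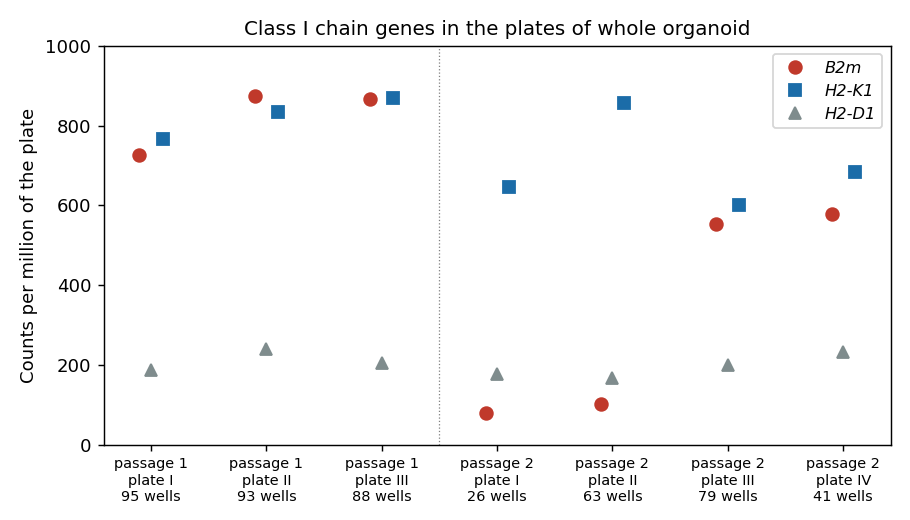
Unscaled CPM of B2m, H2-K1 and H2-D1 in each plate of whole organoid passage 1 (plates I to III) and passage 2 (plates I to IV), left and right of the dotted line. B2m fell to 80.7 and 103 CPM in plates I and II of passage 2, while H2-K1 stayed at or above 601 CPM in every plate.

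Light and heavy chain RNA was present in every replicate of every group, in culture and in tissue. B2m stood at 903 and 478 CPM in whole organoid, 331 and 411 CPM in Reg4+ organoid, 322 CPM in Lgr5+ organoid, 668 and 452 CPM in Lgr5-EGFP cells and 1134, 882, 1072, 624 and 889 CPM in YFP plates 1 to 5. The YFP plates were high, both sorted organoid groups were low, and whole organoid overlapped both intestinal groups. The group means fell from YFP (920.3 ± 199 CPM, SD, n = 5) through whole organoid (690.2 ± 301, n = 2), Lgr5-EGFP (560.2 ± 153, n = 2) and Reg4+ organoid (371 ± 55.9, n = 2) to Lgr5+ organoid. Neighbours overlapped in this order down to Lgr5-EGFP, and the sorted organoid groups lay below them and within 100 CPM of each other.

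H2-K1 had another order, with whole organoid at the top. It stood at 910.3 and 686 CPM in whole organoid, 428 and 409 CPM in Reg4+ organoid, 327 CPM in Lgr5+ organoid, 502 and 423 CPM in Lgr5-EGFP cells and 564, 523, 555, 421 and 509 CPM in YFP plates 1 to 5. Both whole organoid passages lay above every other replicate, the intestinal groups overlapped each other, and the single Lgr5+ organoid replicate was lowest. H2-D1 was highest in Lgr5-EGFP cells, at 355 and 302 CPM. It stood at 284, 268, 256, 189 and 262 CPM in YFP plates, 232 and 207 CPM in whole organoid, 140.4 and 163 CPM in Reg4+ organoid and 112 CPM in Lgr5+ organoid. Only whole organoid and YFP overlapped in H2-D1, so the heavy chains, near copies upstream, were ordered differently over the 5 groups.

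The loading genes fell into 2 patterns. Tapbp, the tapasin gene, behaved like the chains, with 168 and 99.1 CPM in whole organoid, 78.3 and 90.1 CPM in Reg4+ organoid, 41.5 CPM in Lgr5+ organoid, 113 and 102 CPM in Lgr5-EGFP cells and 175, 115, 105, 119.8 and 134 CPM in YFP plates. Here culture and tissue overlapped for the mixed cells. Tap1, a subunit of the peptide transporter, separated culture from tissue, with 15.3 and 11.9 CPM in whole organoid, 9.21 and 8.36 CPM in Reg4+ organoid and 17.4 CPM in Lgr5+ organoid. In the intestine it reached 61.7 and 75.1 CPM in Lgr5-EGFP cells and 54.7, 50.9, 53.3, 47.2 and 55.5 CPM in YFP plates, so that no organoid replicate reached the lowest intestinal one. Tap2, its partner, rested on few counts: 65 and 5 in whole organoid, 6 and 8 in Reg4+ organoid, 10 in Lgr5+ organoid, 27 and 49 in Lgr5-EGFP cells and 15, 12, 9, 2 and 26 in YFP plates. Its level ranged from 3.30 to 25.5 CPM in organoid and from 7.26 to 43.7 CPM in intestinal replicates, and the ranges overlapped.

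Psmb8 and Psmb9, the immunoproteasome subunits, were close to absent in every organoid library and plain in every intestinal one. Psmb8 stood at 5.90 and 1.98 CPM in whole organoid, 4.6 and 5.57 CPM in Reg4+ organoid and 2.90 CPM in Lgr5+ organoid, from 15, 3, 2, 6 and 3 counts. In the intestine it stood at 229 and 242 CPM in Lgr5-EGFP cells and 229, 169, 173, 116 and 202 CPM in YFP plates, from 32 to 374 counts. The lowest intestinal plate was YFP plate 4, also the shallowest, and it still lay above all organoid replicates. Psmb9 stood at 6.68 and 3.30 CPM in whole organoid, 4.6 and 8.36 CPM in Reg4+ organoid, 6.76 CPM in Lgr5+ organoid, 79.1 and 106 CPM in Lgr5-EGFP cells and 146, 92.5, 127, 90.8 and 123 CPM in YFP plates. The same split held at matched well depth: after each well was thinned to 1500 counts, a Psmb8 count remained in 0 to 1.33% of wells in organoid and 14.3 to 39.3% of wells in intestinal replicates. In deep as in shallow replicates both genes thus had their gap between culture and tissue, with no overlap.

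**Figure D2:**
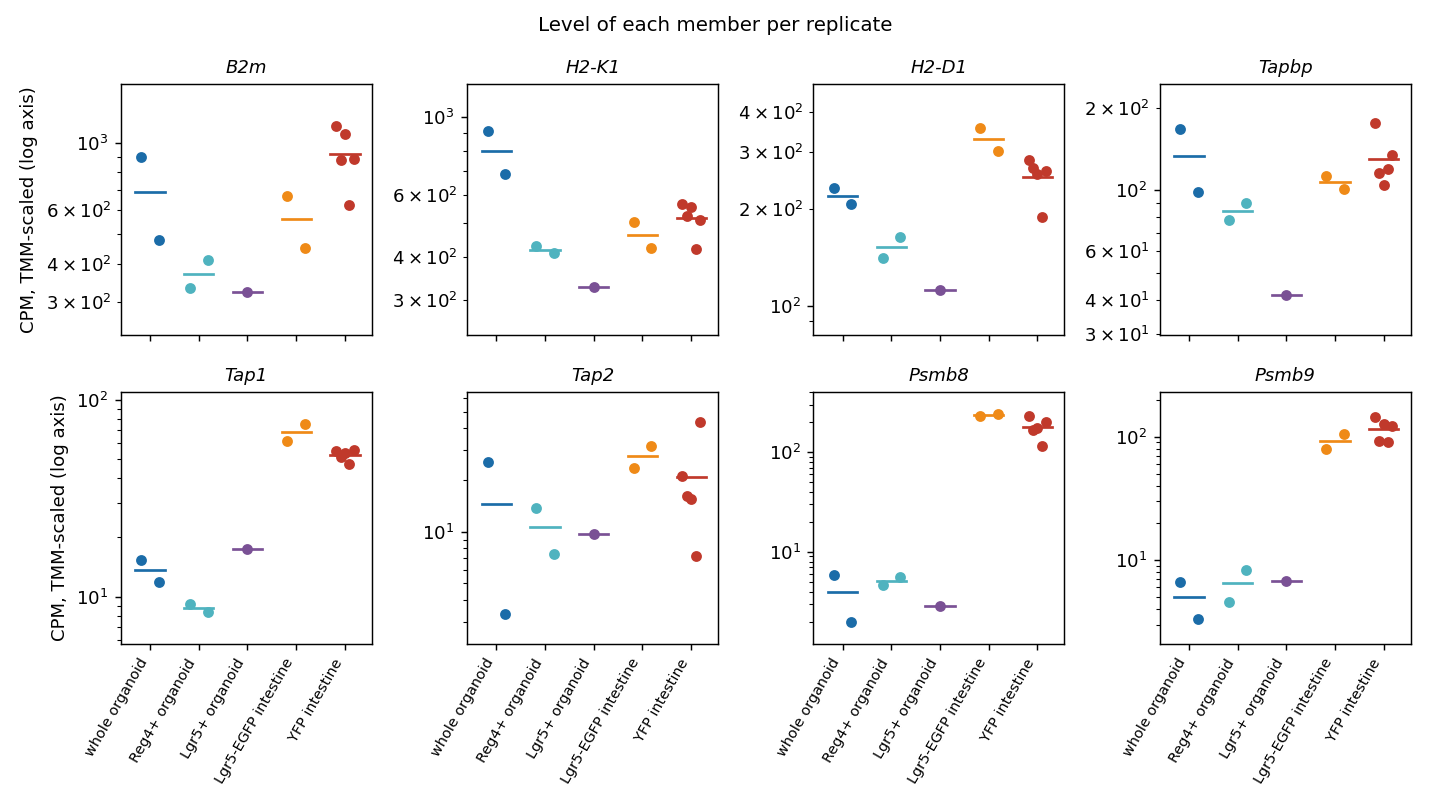
Level of each of the 8 genes per replicate (points) in the 5 groups, in TMM-scaled CPM on a log axis. B2m, the heavy chains and Tapbp were within one order of magnitude in all groups, while every organoid point of Tap1, Psmb8 and Psmb9 lay below every intestinal point.

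Each immunoproteasome subunit was also set against the constitutive subunit whose place it takes, which needs no scaling between libraries. Psmb8 made up 1.90% and 0.73% of Psmb8 and Psmb5 counts in whole organoid, 2.08% and 2.24% in Reg4+ organoid and 1.35% in Lgr5+ organoid. In the intestine its share was 55.2% and 57.7% in Lgr5-EGFP cells and 47.1%, 35.9%, 40.1%, 26.4% and 41.5% in YFP plates. The 95% intervals (exact binomial, for counting error alone) reached at most 7.32% in organoid and came down to at least 18.8% in the intestine. Psmb9 made up 1.15 to 3.45% of Psmb9 and Psmb6 counts in organoid replicates and 24.7 to 36.5% in intestinal ones. For Psmb10, the remaining inducible catalytic subunit and no member of the 8, the share against Psmb7 was 26.8 to 49.7% in organoid and 54.2 to 70.6% in intestinal replicates. The Psmb10 share thus differed between culture and tissue without the near absence seen for Psmb8 and Psmb9.

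**Figure D3:**
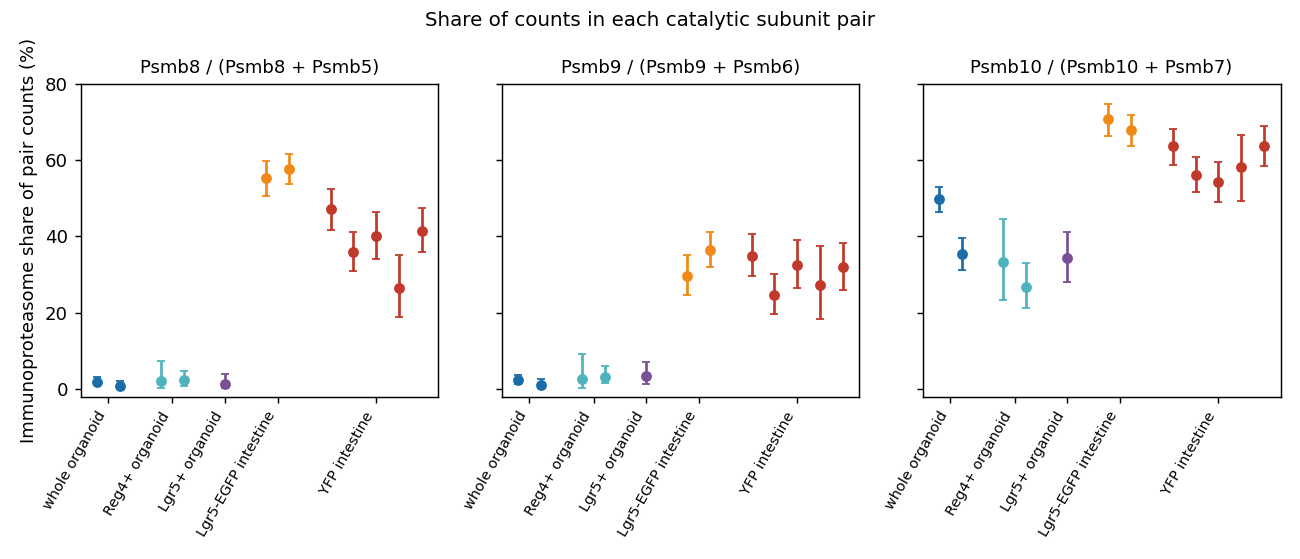
Share of the immunoproteasome subunit in the counts of each catalytic pair, in percent, per replicate and group, with exact 95% binomial intervals as bars. Psmb8 and Psmb9 shares were at most 3.45% in organoid replicates and at least 24.7% in intestinal ones, whereas Psmb10 shares in organoid were at least 26.8%.

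Set against the YFP progeny of Lgr5 cells, mixed organoid cells had less Psmb8, Psmb9 and Tap1, more H2-K1 and no called difference in B2m, H2-D1, Tapbp or Tap2. Psmb8 was 40.5-fold lower in whole organoid (3.94 ± 2.77 against 178 ± 42.0 CPM, log2 difference -5.34, SE 0.35, adjusted p = 3.66e-07, edgeR quasi-likelihood test with Benjamini-Hochberg adjustment over 10632 genes). By the same edgeR test Psmb9 was 21.5-fold lower (log2 -4.43, SE 0.32, adjusted p = 7.25e-07) and Tap1 3.78-fold lower (log2 -1.92, SE 0.22, adjusted p = 3.36e-05). H2-K1 was 1.55-fold higher in edgeR (798 ± 158 against 514 ± 56.8 CPM, log2 0.63, SE 0.18, adjusted p = 0.0195). The cell content of these groups differed too. The unscaled summed level of 18 enterocyte markers was 49958 and 25358 CPM in whole organoid and 3087 to 9279 CPM in YFP plates. The part of cell content in the H2-K1 difference was not tested. B2m differed by -0.41 on the log2 scale (SE 0.27, adjusted p = 0.308 in edgeR), which is within the spread of its replicates. Of the 8 members 3 were called lower and 1 higher, while 9.45% of all genes tested were called lower and 13.4% higher. These 4 also had replicates that did not overlap, as had 35.5% of all genes. Without plates I and II of passage 2 the edgeR values were -5.33 for Psmb8, -4.48 for Psmb9, -2.0 for Tap1, 0.58 for H2-K1 (adjusted p = 0.0372) and -0.33 for B2m (adjusted p = 0.39). The H2-K1 call was lost without passage 1 of whole organoid (log2 0.40, adjusted p = 0.253 in edgeR), when Tap2 was called lower (log2 -2.68, adjusted p = 0.0351). Psmb8 and Psmb9 passed the filter on low counts only through the intestinal groups, so their number among the called genes is a description.

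The Lgr5-sorted cells gave a second pair of culture and tissue, with 1 library against 2 plates and the lone library assumed to vary like the other groups. This pair used the same fit, in which Psmb8 and Psmb9 passed the filter on low counts only through the intestinal groups. Counts of called members that include them are again a description. Lgr5+ organoid cells had less Psmb8, Psmb9, Tap1 and H2-D1 than Lgr5-EGFP cells from the intestine. Psmb8 was 76.3-fold lower (log2 -6.25, SE 0.59, adjusted p = 8.16e-05 in edgeR), Psmb9 13.2-fold lower (log2 -3.72, SE 0.50, adjusted p = 0.00173) and Tap1 3.83-fold lower (log2 -1.94, SE 0.32, adjusted p = 0.00698). H2-D1 was 2.86-fold lower in edgeR (112 against 329 ± 37.6 CPM, log2 -1.52, SE 0.28, adjusted p = 0.0159). Tapbp (log2 -1.33, SE 0.38, adjusted p = 0.131), B2m (log2 -0.76, adjusted p = 0.51) and H2-K1 (log2 -0.46, adjusted p = 0.57) were lower in the one library without passing the edgeR test. In all, 4 members were called lower against 0.677% of all genes, and all 8 had replicates that did not overlap, as had 76.5% of all genes. The H2-D1 call was lost without either plate of Lgr5-EGFP cells (adjusted p = 0.0649 and 0.108), and Tap1 kept its call without 1 of them and lost it without the other (adjusted p = 0.0245 and 0.078).

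**Figure D4:**
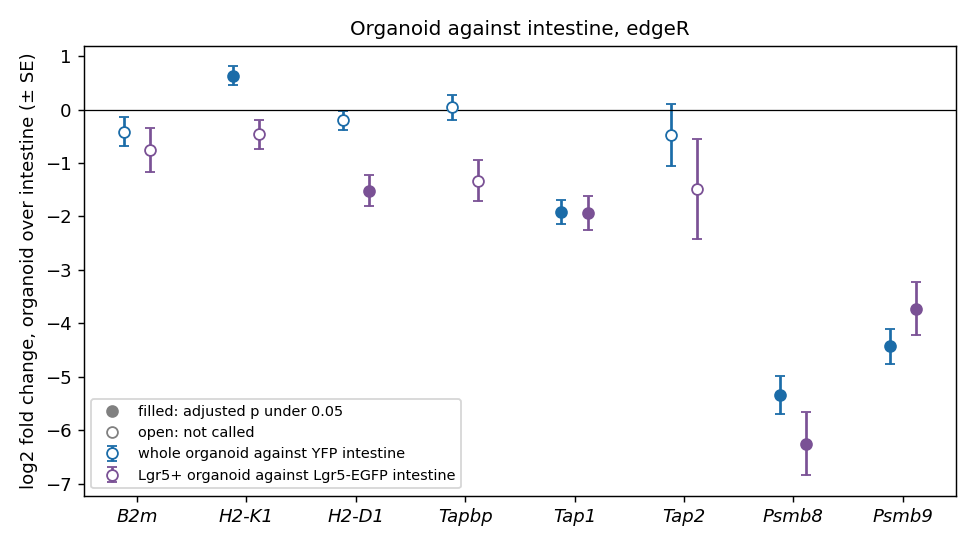
Log2 fold change of each gene, organoid over intestine, for mixed cells (whole organoid over YFP) and for Lgr5-sorted cells (Lgr5+ organoid over Lgr5-EGFP), with bars of 1 SE and filled points for an adjusted p below 0.05 in edgeR. Psmb8, Psmb9 and Tap1 lie below 0 in both pairs, and H2-D1 lies at -0.20 for mixed and -1.52 for Lgr5-sorted cells.

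Whether culture and tissue differed by another amount in mixed than in Lgr5-sorted cells was tested as an interaction. H2-D1 was the member called: its culture difference was -0.20 (SE 0.18) on the log2 scale in mixed cells and -1.52 in Lgr5-sorted cells, an interaction of 1.31 (SE 0.33, adjusted p = 0.0391 in edgeR). Without plates I and II of passage 2 it was 1.32 (adjusted p = 0.0374 in edgeR). That is 1 of 8 members with a higher value in mixed cells, against 2.07% of all genes. H2-K1 (1.10, adjusted p = 0.077) and Tapbp (1.37, adjusted p = 0.0992) had interactions of similar size without passing the edgeR test. For Psmb8 (0.91, SE 0.87, adjusted p = 0.606) and Psmb9 (-0.70, adjusted p = 0.618) the edgeR test found no called interaction, and the error for Psmb8 spans nearly as much as the value.

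Within culture, no member was called between sorted and unsorted organoid cells. Against whole organoid, Reg4+ cells had lower values of B2m (log2 -0.88, SE 0.40, adjusted p = 0.245), H2-K1 (log2 -0.92, SE 0.34, adjusted p = 0.158), H2-D1 (log2 -0.51, SE 0.30, adjusted p = 0.362) and Tapbp (log2 -0.65, SE 0.36, adjusted p = 0.34). None of the 6 members tested passed edgeR, against 6.46% of all genes, with 1 at an unadjusted p under 0.05 and none called by DESeq2. For Lgr5+ cells the values against whole organoid were -1.06 for B2m (adjusted p = 0.283), -1.25 for H2-K1 (adjusted p = 0.16), -0.93 for H2-D1 (adjusted p = 0.21) and -1.65 for Tapbp (adjusted p = 0.104). Again none of 6 passed edgeR, against 3.63% of all genes, with 3 at an unadjusted p under 0.05 and 1, H2-K1, called by DESeq2. Without plates I and II of whole organoid passage 2 the B2m value was -0.97 (adjusted p = 0.191 in edgeR) for Reg4+ and -1.14 (adjusted p = 0.238) for Lgr5+ cells, and again no member was called. Psmb8 and Psmb9 were too low in culture to be tested. In Reg4+ passage 2, 3 wells above 100000 counts held 47.1% of the B2m counts, 46.6% of the H2-K1 counts and 7 of the 9 Tap1 counts.

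Within the intestine the members differed little between YFP progeny and Lgr5-EGFP cells. B2m was 1.65-fold higher in YFP cells (log2 0.72, SE 0.21, adjusted p = 0.0228 in edgeR), though YFP plate 4, at 624 CPM, lay below the higher Lgr5-EGFP plate, at 668 CPM. The call was lost without Lgr5-EGFP plate 2 (log2 0.46, adjusted p = 0.285 in edgeR). The other members were not called, from H2-K1 (log2 0.16, adjusted p = 0.47) to Psmb8 (log2 -0.38, adjusted p = 0.149), H2-D1 (log2 -0.37, adjusted p = 0.0992) and Tap1 (log2 -0.38, adjusted p = 0.0916). One member in 8 was called higher, against 14.7% of all genes, and H2-D1, Tap1 and Psmb8 had plates that did not overlap, as had 36.2% of all genes. These values depend on scaling, and the spike-in share also differed, at 0.921 to 0.945% in Lgr5-EGFP and 6.80 to 8.84% in YFP plates. With total counts in place of TMM the median of all genes moved to -0.44, B2m was 0.29 (adjusted p = 0.26), and H2-D1 (-0.80), Tap1 (-0.82) and Psmb8 (-0.82) were called lower in YFP cells by edgeR. Relative to that shifted median B2m was still above and those 3 genes below.

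Cell classes were built by clustering without the 8 members, other class I, class II or interferon genes, and named from marker genes. All class levels are unscaled CPM. Among the named classes, enterocyte-like wells had the highest B2m and H2-K1 levels in both sources. H2-D1 did not share this order throughout in culture. In whole organoid it stood at 253 and 304 CPM in enterocyte-like wells of passages 1 and 2. Enteroendocrine-like wells of passage 1 (15 wells) had less, 208 CPM, and Paneth-like wells of passage 2 (10 wells) had more, 348 CPM. Enteroendocrine-like wells of Reg4+ organoid, another sort and mouse, had 410 and 328 CPM. In YFP plates 1, 2, 3 and 5 (5 to 13 wells each) the B2m level of enterocyte-like wells was 1932, 1454, 2465 and 1503 CPM. Goblet-like wells of the same plates (5 to 8 wells each) had 904, 836, 588 and 706 CPM of B2m, all below the enterocyte-like wells. By edgeR with the plate as a block, B2m was higher in enterocyte-like wells (log2 1.01, SE 0.21, adjusted p = 0.00171). H2-D1 (log2 0.75, adjusted p = 0.033), H2-K1 (log2 0.55, adjusted p = 0.0252) and Psmb8 (log2 0.82, adjusted p = 0.0139) were also higher in edgeR, and Tapbp was not called (log2 1.06, adjusted p = 0.0695). That is 4 of 5 tested members called, against 47.3% of all genes called in either direction, and DESeq2 called 1 of them. Leaving out 1 plate in turn, B2m was called in each of the 4 fits and between 1 and 4 members in all. The H2-K1 call was lost without YFP plate 1, 2 or 5, that of H2-D1 without plate 1, 2 or 3, and that of Psmb8 without plate 1 or 2.

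Paneth-like wells of the intestine were compared by level only, without a test. Their B2m level was 411 CPM in Lgr5-EGFP plate 2 (5 wells) and 352 and 528 CPM in YFP plates 2 and 3 (8 wells each). H2-K1 was 575, 258 and 373 CPM there, so that the first of these exceeded 3 of the 4 goblet-like values of YFP plates (530.1, 537, 659 and 471 CPM). Psmb8 was 113, 47.0 and 72.8 CPM in Paneth-like wells, against 431, 247, 377 and 406 CPM in the enterocyte-like and 217, 129, 141 and 215 CPM in the goblet-like wells of YFP plates. The 8 tuft-like wells had 237 CPM of Psmb8 and the 18 enteroendocrine-like wells 197 CPM, each from a single cluster without replicates. Every named intestinal class thus held Psmb8 RNA. No intestinal cluster met the naming rule for stem-like, which asks for markers 2-fold above the other intestinal wells. Under that rule 68 of 75 and 68 of 84 Lgr5-EGFP wells stayed unnamed. Those unnamed Lgr5-EGFP wells had 290 and 326 CPM of Psmb8 and 812 and 587 CPM of B2m.

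**Figure D5:**
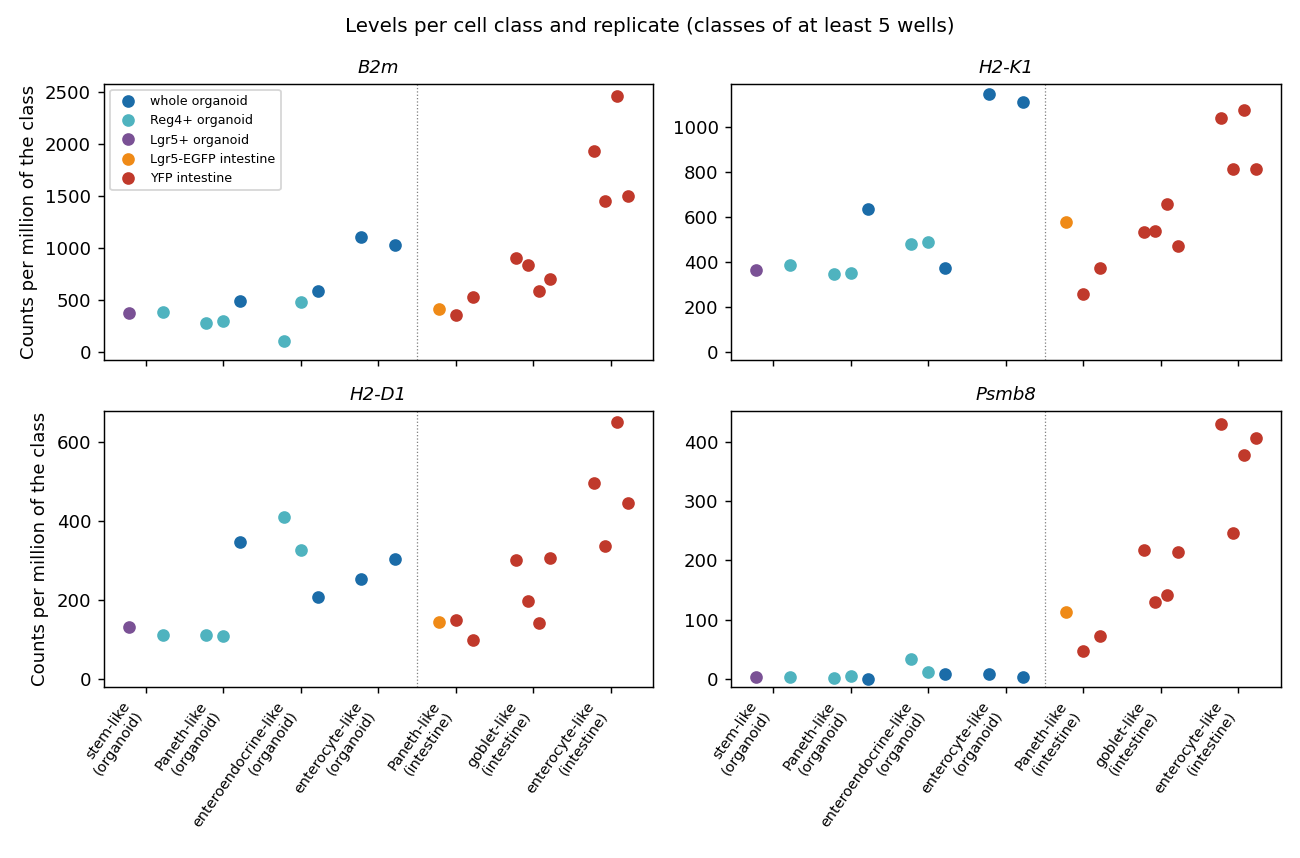
Unscaled CPM of B2m, H2-K1, H2-D1 and Psmb8 in each named class of at least 5 wells per replicate, organoid classes left and intestinal classes right of the dotted line. Psmb8 is at most 11.3 CPM in the organoid classes, except for 34.1 CPM from 1 count in the enteroendocrine-like wells of Reg4+ passage 1, and among intestinal classes the enterocyte-like points reach 247 to 431 CPM against 47.0 to 113 CPM for Paneth-like points.

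The gap in Psmb8 and Psmb9 was also present within enterocyte-like wells. Enterocyte-like wells made up 144 of 276 wells in whole organoid passage 1, 26 of 209 in passage 2 and 5.71 to 16.2% of wells in YFP plates. Those of the passages lay mostly in different clusters, and passage 2 had 0 such wells from plates I and II. An unnamed cluster of 47 wells, all from passage 2, had 5 enterocyte markers raised. Its levels were 140 CPM of B2m and 1142 CPM of H2-K1. In culture enterocyte-like wells had 8.05 and 3.20 CPM of Psmb8, from 12 and 1 counts in passages 1 and 2. In YFP plates they had 247 to 431 CPM, a 41.8-fold difference (log2 -5.39, SE 0.45, adjusted p = 2.28e-06 in edgeR over 2294 genes). Psmb9 was 37.9-fold lower in culture (log2 -5.24, SE 0.71, adjusted p = 0.000146) and Tap1 5.66-fold lower (log2 -2.50, SE 0.66, adjusted p = 0.0177), both by edgeR. The culture side of these values rests on 7 and 0 counts of Psmb9 and 27 and 1 counts of Tap1 in passages 1 and 2. Without whole organoid passage 2 the Tap1 call was lost (log2 -2.07, adjusted p = 0.0794 in edgeR). Without passage 1 the values were -4.24 for Tap1, from 1 count in culture, and -7.34 for Psmb9. With 0 counts of Psmb9 left in culture, the size of the latter is not a measured fold. H2-K1 levels were 1147 and 1109 CPM in culture against 813 to 1073 CPM in YFP plates (log2 0.50, SE 0.22, adjusted p = 0.143). B2m levels were 1109 and 1026 CPM in culture, below the lowest YFP plate, and the difference was not called (log2 -0.56, SE 0.26, adjusted p = 0.167 in edgeR). Of 7 tested members 3 were called lower, against 5.75% of all genes. All 3 passed the filter on low counts only through the YFP plates, so this count is a description.

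Among Reg4+ organoid wells, Paneth-like wells (59 and 22 per passage) had less H2-D1 and Tapbp than enteroendocrine-like wells (7 and 49). H2-D1 stood at 111 and 108 CPM in Paneth-like and 410 and 328 CPM in enteroendocrine-like wells (log2 -1.10, SE 0.38, adjusted p = 0.0377 in edgeR). Tapbp stood at 53.2 and 49.0 CPM in Paneth-like and 205 and 208 CPM in enteroendocrine-like wells (log2 -1.41, SE 0.46, adjusted p = 0.0296). H2-K1, at 346 and 348 against 478 and 487 CPM, was not called (log2 0.14, adjusted p = 0.826), a sign opposite to its unscaled levels. In all, 2 of 4 tested members were called, against 21.8% of all genes in either direction, while DESeq2 called none of them. The H2-D1 call was kept in 1 of 6 alternatives, a coarser clustering with the same value, and adjusted p ran from 0.0377 to 0.769 over all of them. Tapbp was called in 3 of 5 alternatives (adjusted p 0.024 to 0.758). The enteroendocrine-like levels of Reg4+ passage 1 rest on 12 counts of H2-D1 and 6 of Tapbp. Whole organoid did not show this order. Its Paneth-like wells of passage 2 (10 wells) had 348 CPM of H2-D1 and 192 CPM of Tapbp. Its enteroendocrine-like wells of passage 1 (15 wells) had 208 and 190 CPM, and these different passages were not tested against each other. In stem-like wells, which made up 68 of 74 wells of Lgr5+ organoid, B2m was 374 CPM, H2-K1 364 CPM and H2-D1 132 CPM.

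Other genes of the pathway were read from fixed lists, whose counts stand against 9.45% of all genes called lower and 13.4% called higher for whole organoid against YFP cells. For whole organoid against YFP cells, the immunoproteasome and activator list had 2 of 4 genes lower, Psmb10 (log2 -1.25) and the activator subunit Psme1 (log2 -1.0), with a list median of -0.91 against 0.04 for all genes. The constitutive proteasome list had 1 of 10 lower, Psma1 (log2 -0.71), a share near that of all genes, and its median was -0.28. In loading and trimming 1 of 5 was lower, the peptide-trimming enzyme Erap1 (log2 -1.09). Of 10 other class I genes only H2-Q1 was called, higher in culture (221 against 85.9 CPM, log2 1.31), and the list median was 0.52. Of 15 regulators 4 were lower, including the transcription factors Irf1 (47.2 against 108 CPM, log2 -1.18), Irf8 (log2 -0.70) and Irf9 (log2 -0.97), and the receptor subunit Ifngr2 was higher (log2 0.67). The median of the regulators was 0.28, above that of all genes. Of 14 interferon response genes 7 were lower and none higher, among them Ifitm3 (95.4 against 449 CPM, log2 -2.24) and the GTPase gene Igtp (log2 -2.94), with a list median of -2.15 when genes without counts in culture are set at their limit of 3 counts. All 7 MHC class II genes were lower, with 1 count each of Cd74, H2-Aa and H2-Ab1 in whole organoid against 685, 572 and 654 counts in YFP cells. In the fit of organoid groups alone, 0 class II and 5 interferon response genes passed the filter on low counts. The counts of called genes from these 2 lists in the fit of all 5 groups are therefore a description.

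For Lgr5-sorted cells the same lists gave Psmb10 (log2 -1.84), Erap1 (log2 -1.56), Irf1 (21.2 against 110.4 CPM, log2 -2.34) and Irf8 (log2 -1.32) as lower in culture, against 0.677% of all genes. None of 10 other class I and none of 10 constitutive proteasome genes was called there, and the list medians were -1.31 and 0.06 against -0.01 for all genes. Of 14 interferon response genes 1 was called lower, Ifi47 (log2 -4.87). The median of that list was -1.90 when genes without counts in culture are set at their limit of 3 counts. All 7 MHC class II genes were set at that limit, with a list median of -6.64, which rests on 1 organoid library. Between YFP and Lgr5-EGFP cells the constitutive proteasome list had 6 of 10 genes higher in YFP cells, with a median of 0.50. There 6 of 7 class II genes were lower (median -1.25), against 14.7% of all genes called higher and 11.0% called lower. H2-Q1 was also lower in both sorted organoid groups than in whole organoid, at 25.9 CPM in Reg4+ and 8.69 CPM in Lgr5+ cells against 221 CPM (log2 -3.05 and -4.62).

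Over the 12 replicates and 7107 genes of sufficient level, the genes whose log2 level followed Psmb8 most closely were H2-Aa (Pearson r 0.992), H2-Eb1 (0.99), H2-Ab1 (0.989), Cd74 (0.988) and Psmb9 (0.987). These values mainly restate that organoid and intestinal replicates lie apart in all 6 genes. B2m was followed by Casp1 (0.95), Ace (0.922), Gltp (0.915), 4932438A13Rik (0.911) and Pnp2 (0.909), and H2-D1 by genes that included Reg3b (0.908), AW112010 (0.898), Irf1 (0.874) and Kitl (0.865). Among the members, Psmb8 and Tap1 had r = 0.957, Psmb8 and H2-K1 -0.04, and B2m and Tapbp 0.805. All correlations describe the same 12 replicates, which share culture, plate and depth.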

How the data were processed

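The tables hold estimated counts per gene and well, which the authors derived from 4-base random barcodes. The submitters' processing notes name BWA 0.6.2-r126 as aligner and mm10 (GRCm38) as genome. Inverting a correction for 256 possible barcodes turned 3897264 of 3897290 nonzero values into whole numbers (tolerance 1e-06), and the other 26 were saturated at 1597.01. Here values were rounded (largest shift 0.495), 92 spike-in RNAs and wells under 1500 counts were left out, and wells were summed per passage or plate. Another 2 tables of 96 wells matched no library entry, so 192 columns were not used.

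Tests used edgeR 4.0.16 (quasi-likelihood, TMM, filterByExpr, false discovery rate 0.05) with R 4.3.3. There was 1 fit for organoid groups, 1 for intestinal groups and 1 of all 5 groups for comparisons across them. Standard errors are the log2 difference over the root of F. Wells were clustered with scanpy 1.11.5 (Leiden, 2000 variable genes, 20 components, 10 neighbours, resolution 1), separately for organoid and intestine. A class needed 3 raised markers, each found in at least 25% of a cluster's wells. Raised meant a mean at least 2-fold above the other wells of that source. Its markers also had to outnumber those of every other class among the cluster's 10 leading genes. No doublet caller was run on these sorted wells. The fits were tested on simulated data. Members and lists were chosen with earlier results of these data known. All 8 members are named, and other genes are up to 4 called genes of each list, plus the 5 most alike genes of B2m, H2-D1 and Psmb8. One gene that this rule named is not reported here. The interaction, the goblet-like and the Paneth-like comparisons, and leaving out plates I and II, were added after seeing the data. DESeq2 1.42.0, other scalings, filters and depths, and left-out replicates were alternatives.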

Additional observations from a re-analysis of the deposited data

Results flagged for a closer look

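H2-D1, a classical heavy chain gene, is listed because its difference between culture and intestine was not the same in the 2 kinds of cells compared. It was -0.20 (SE 0.18, adjusted p = 0.455) for whole organoid against YFP cells and -1.52 (SE 0.28, adjusted p = 0.0159) for Lgr5+ organoid against Lgr5-EGFP cells, on the log2 scale in edgeR. The interaction was 1.31 (SE 0.33, adjusted p = 0.0391), and it rests on 1 Lgr5+ organoid library. It was called in 8 of 11 alternatives, with adjusted p between 0.00653 and 0.404. Among the 5 YFP plates no member had a plate far enough from the others to be listed, and YFP plate 4 came closest for H2-D1, with a gap of 0.709 of the range against a limit of 0.71.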

How the results depend on the processing

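Lower Psmb8 and Psmb9 in whole organoid than in YFP cells were called in all 19 alternatives each, with log2 values from -6.54 to -4.90 and from -5.10 to -4.10. Tap1 was called in 18 of 19, the exception being wells thinned to 1500 counts (-0.87, adjusted p = 0.332). H2-K1 was called in 17 of 19. For Lgr5+ organoid against Lgr5-EGFP cells Psmb8 was called in 11 of 11 alternatives, Psmb9 in 10, Tap1 in 8 and H2-D1 in 7, and B2m in YFP against Lgr5-EGFP cells in 13 of 17. Thinning tests fewer genes and fewer counts, and leaving out a replicate leaves fewer samples. For the other changes the cause was not tested.

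Counts of called genes over the whole table moved by more than 1.5 times as follows. For Reg4+ against whole organoid (680), 1716 genes were called without a filter, 1128 with plates as units, 1910 in 1 fit over all 5 groups, and 209 to 933 without 1 replicate. For Lgr5+ against whole organoid (382), 245 were called with total counts, 1372 without a filter, 198 after thinning, 143 without wells above 100000 counts, 247 with plates as units, 1738 in 1 fit over all groups, and 561 to 837 without 1 replicate. For YFP against Lgr5-EGFP (2330), 3957 were called with total counts, 550 after thinning, and 1104 to 2446 without 1 replicate. For whole organoid against YFP (2435), 691 were called after thinning and 1187 to 2199 without 1 replicate. For Lgr5+ organoid against Lgr5-EGFP (153), 472 were called without a filter, 17 after thinning, 52 with plates as units, and 41 to 56 without 1 replicate. For the interaction (467), 956 were called without a filter, 61 after thinning and 83 with plates as units. Within enterocyte-like wells (385), 695 were called without a filter, 102 after thinning, and 253 to 463 without 1 replicate. For enterocyte-like against goblet-like wells (771), 135 were called after thinning and 561 to 798 without 1 replicate. For Paneth-like against enteroendocrine-like wells (911), 237 were called by DESeq2, 581 without a filter and 267 after thinning.

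The number of members called changed too. It was 1 for Reg4+ against whole organoid in 1 fit over all groups. For Lgr5+ against whole organoid it was 1 with DESeq2, 1 without a filter, 3 in 1 fit over all groups and 0 to 1 without 1 replicate. For YFP against Lgr5-EGFP it was 3 with total counts, 0 after thinning, 0 in 1 fit over all groups and 0 to 1 without 1 replicate. For Lgr5+ organoid against Lgr5-EGFP it was 1 after thinning, 2 with plates as units and 2 to 3 without 1 replicate. For the interaction it was 2 with DESeq2, total counts or no filter and 0 after thinning, without wells above 100000 counts or with plates as units. Within enterocyte-like wells it was 1 after thinning and 2 to 3 without 1 replicate. For enterocyte-like against goblet-like wells it was 1 with DESeq2 or after thinning and 1 to 4 without 1 replicate. For Paneth-like against enteroendocrine-like wells it was 0 with DESeq2, without a filter or after thinning, and 1 with RLE size factors or with no replicate block.

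Only members that were not called changed sign. Tap2 against whole organoid ranged from -1.35 to 1.58 (Reg4+) and from -1.34 to 1.56 (Lgr5+) over the left-out replicates, turning positive without whole organoid passage 1. Whole organoid against YFP gave Tap2 from -2.68 (without passage 1) to 0.24 (without passage 2). Between YFP and Lgr5-EGFP cells total counts gave -0.27 for H2-K1, -0.14 for Tapbp and -0.10 for Psmb9, and thinning gave -0.23 for Tapbp. Between whole organoid and YFP cells Tapbp became -0.0598 with wells of 3000 counts or more, -0.0039 without wells above 100000 counts, -0.12 with the replicate block, and -0.0218 without plates I and II, and over the left-out replicates it ran from -0.41 to 0.37, with -0.0063 without YFP plate 2 and -0.0348 without YFP plate 3. The Tap1 interaction became -0.0414 with wells of 3000 counts or more, -0.015 with uncorrected barcode numbers, -0.0434 without wells above 100000 counts, -0.0862 without wells 49 to 96 of plate IV and -0.0601 without plates I and II. Thinned, B2m in Paneth-like against enteroendocrine-like wells became -0.42.

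Replicate numbers did not pair the samples: same-numbered replicates had correlations of their deviations of -0.09 (whole and Reg4+ organoid), -0.005 and -0.03 (Lgr5-EGFP and YFP), and 0.118 and 0.05 (whole organoid and YFP). With the replicate number as a block 418 genes were called for Reg4+ against whole organoid, 2322 for YFP against Lgr5-EGFP and 918 for whole organoid against YFP, where H2-K1 was no longer called (adjusted p = 0.19). Planned comparisons with stem-like wells were not run, since no intestinal cluster was named stem-like and whole organoid passages held 3 and 4 such wells. Keeping wells 49 to 96 of YFP plate 4 was not run, since that plate has 48 wells in the table used. Paneth-like against enteroendocrine-like wells has no fit without a passage. Depth limits Tap2 everywhere, and Psmb8 and Psmb9 in culture to counts of 2 to 17 per replicate.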
